A study of Mus musculus with 18 samples.

Results

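The 10 genes that were followed here mark blood vessel endothelium: *Cdh5*, *Pecam1*, *Kdr*, *Flt1*, *Tek*, *Tie1*, *Sox17*, *Sox18*, *Emcn* and *Cldn5*. They were measured in whole mouse embryos at E11.5, were chosen by their symbols, and all 10 had a row among the 34244 named rows of the expression table. RNA was sequenced from 9 live FVB embryos, 3 of each *Dnmt3b* genotype. *Dnmt3b* encodes a de novo DNA methyltransferase. *Dnmt3b*+/+ embryos carried the unmodified gene. *Dnmt3b*-/- embryos were homozygous for a conventional null allele derived from a floxed *Dnmt3b* line. *Dnmt3b*CI/CI embryos were homozygous for a CRISPR/Cas9 knock-in at the endogenous locus that substitutes residues of the catalytic site. The 3 genotypes allow the loss of the whole protein to be set beside the loss of its catalytic activity alone. Knock-in offspring came from independent founder lines that the study pooled, the embryos were taken from natural matings of heterozygotes and genotyped from the yolk sac, and no other allele or treatment is named. Nothing in the labels names the litter of an embryo, so p-values measure the spread between these 9 libraries.

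Endothelial cells line every vessel and the chambers of the heart. VEGF receptors start and guide vessel growth, Tie receptors stabilise the vessels once formed, VE-cadherin and claudins seal the contacts between cells, and SoxF transcription factors set arterial and lymphatic programmes. In the mouse midgestation embryo these cells form part of every organ, so a whole-embryo library reads all vascular beds at once. In such bulk RNA, fewer endothelial cells and less RNA per endothelial cell cannot be told apart.

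Values are FPKM, reads scaled to the exon length of the gene and to the mapped reads of the library. The normalization totals were between 38451729 and 49808777 reads per library. At this depth the members held from 178 to 2812 reads per embryo, so none was near the limit of detection. The RNA of the targeted gene did not follow its label. *Dnmt3b* measured 2.25, 1.62 and 2.04 FPKM in *Dnmt3b*+/+, 2.45, 3.12 and 3.33 FPKM in those labelled *Dnmt3b*-/-, and 2.06, 1.98 and 2.32 FPKM in *Dnmt3b*CI/CI. Libraries with the null label thus held more *Dnmt3b* RNA than *Dnmt3b*+/+ libraries (log2 fold change 0.57, SE 0.15, limma adjusted p = 0.0248). That call was lost without *Dnmt3b*+/+ embryo 2 (adjusted p = 0.0637) or 3 (0.0587) and without the embryo labelled *Dnmt3b*-/- 2 (0.0844) or 3 (0.0836), and in a fit of only these 2 genotypes (0.0634). A value summed over the gene does not show whether a targeted exon is absent. These 3 embryos are therefore called the embryos labelled *Dnmt3b*-/- below, and every direction drawn from them rests on that label. In other genes their libraries differed from *Dnmt3b*+/+, with 25.8% of all tested genes called, beside 0.144% in *Dnmt3b*CI/CI against *Dnmt3b*+/+. One of these, *Shh*, a hedgehog ligand, measured 4.29, 5.14 and 4.22 FPKM in them, 1.97, 1.66 and 2.22 FPKM in *Dnmt3b*+/+ and 1.56, 2.47 and 1.77 FPKM in *Dnmt3b*CI/CI.

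The members lie at 10 separate places in GRCm38. The receptor genes are *Kdr* (chr5:75932827-75978458, minus strand), *Flt1* (chr5:147561604-147726011, minus), *Tek* (chr4:94739289-94874976, plus) and *Tie1* (chr4:118471191-118490061, minus). Surface and junction proteins are encoded by *Cdh5* (chr8:104101625-104144511, plus), *Pecam1* (chr11:106654217-106750628, minus), *Cldn5* (chr16:18776847-18778262, plus) and *Emcn* (chr3:137341067-137432185, plus). The transcription factor genes are *Sox17* (chr1:4490931-4497354, minus) and *Sox18* (chr2:181669836-181671640, minus). Only *Sox17* shares exon bases with another gene, 804 bases (16.85% of its exon length) with *Gm37587* on the opposite strand. *Gm37587* held at most 0.0437 FPKM, and whether counting used strand is not given in the sources used here.

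Promoter windows, the 250 bases before the start that RefSeq gives the gene in GRCm38.p6, were at hand for 6 of the 10 members: *Kdr*, *Flt1*, *Tek*, *Tie1*, *Emcn* and *Cldn5*. The gene extents above are from GENCODE, which starts some genes farther upstream, so 212 bases of the *Tie1* window, 11 of *Emcn* and 3 of *Kdr* lie inside the GENCODE gene. They are described because Dnmt3b methylates cytosines of CG dinucleotides and because ETS and SOX factors are known regulators of endothelial genes. No methylation values were analysed here. *Flt1* and *Emcn* are shown with CG in capitals, as the members with the most and the fewest CG, and *Tie1* with the ETS core in capitals, as the member with the most ETS cores.
Flt1, chr5:147726012-147726261, minus strand: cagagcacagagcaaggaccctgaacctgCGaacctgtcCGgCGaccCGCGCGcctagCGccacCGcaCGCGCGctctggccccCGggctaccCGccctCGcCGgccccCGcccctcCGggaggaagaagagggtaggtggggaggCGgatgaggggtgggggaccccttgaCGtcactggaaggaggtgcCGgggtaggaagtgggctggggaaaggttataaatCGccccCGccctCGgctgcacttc
Emcn, chr3:137340828-137341077, plus strand: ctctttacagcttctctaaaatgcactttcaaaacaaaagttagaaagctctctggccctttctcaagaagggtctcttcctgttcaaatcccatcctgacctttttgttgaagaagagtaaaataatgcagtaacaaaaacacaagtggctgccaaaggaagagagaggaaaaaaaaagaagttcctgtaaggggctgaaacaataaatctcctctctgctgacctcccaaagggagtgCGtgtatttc
Tie1, chr4:118489850-118490099, minus strand: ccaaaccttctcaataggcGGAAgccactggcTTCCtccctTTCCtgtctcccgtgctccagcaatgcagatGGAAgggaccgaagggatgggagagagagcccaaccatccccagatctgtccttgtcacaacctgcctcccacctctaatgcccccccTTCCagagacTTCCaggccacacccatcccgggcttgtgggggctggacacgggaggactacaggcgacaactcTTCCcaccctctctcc

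The CG content of the windows differed widely among the members. The *Flt1* window holds 23 CG, which 13.3% of the 32851 mouse windows of this length reach or exceed, and *Kdr*, its sister receptor, holds 16. *Cldn5* holds 12 and *Tie1* 6, which is also the median of all windows. *Tek* holds 2 and *Emcn* 1. The members therefore do not share a CG-rich promoter, and the windows with the most CG belong to the VEGF receptors.

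Motif letters were counted on both strands. The ETS core, GGAA or TTCC, is present in 5 of the 6 windows and in 93.4% of all windows, so its presence is no feature of these genes. *Tie1* has 7 ETS cores, a number reached by 3.82% of windows, in a window that is mostly inside its GENCODE gene, and *Cldn5* has 0. A SOX core, ACAAT or ATTGT, occurs in *Tek* (2) and *Emcn* (1) and in 27.7% of all windows, and a GATA core, GATAA or TTATC, in 0 of the 6 and in 22.6% of all windows. A GGAA inside a longer word was counted wherever it stood, and a match of letters is not a bound site.

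Levels per length spanned a range from about 1 to about 15 FPKM. The order of the means over 9 embryos was *Cldn5* 14.5, *Cdh5* 12.9, *Sox18* 8.9, *Tie1* 7.53, *Kdr* 5.55, *Pecam1* 4.99, *Tek* 2.52, *Sox17* 1.55, *Flt1* 1.2 and *Emcn* 1.04 FPKM. *Pecam1* and *Tek* were separated in every embryo without overlap of their ranges, as were *Tek* and *Sox17*. All other neighbours in this order had overlapping ranges, although *Cdh5* exceeded *Sox18*, and *Sox18* exceeded *Tie1*, within each of the 9 embryos. *Cldn5* exceeded *Cdh5* in 6 of 9. VE-cadherin and claudin-5, both contact proteins, thus had the highest levels, and the receptor *Kdr* exceeded its sister *Flt1* in every embryo.

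The summed level of the 10 genes was 53.6, 64.1 and 61.0 FPKM in *Dnmt3b*+/+, 60.5, 55.7 and 48.6 FPKM in those labelled *Dnmt3b*-/-, and 67.1, 66.8 and 68.5 FPKM in *Dnmt3b*CI/CI. The first 2 groups overlapped, and the 3 *Dnmt3b*CI/CI embryos lay close together above both. A fold-change test was made across 19397 genes that reached 0.1 FPKM in 3 or more embryos, all 10 members among them, with limma on log2(FPKM + 0.1). Because of the added 0.1, folds are understated, the more so the lower the gene. A gene is said to have risen or fallen only at a Benjamini-Hochberg adjusted p under 0.05.

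**Figure D1:**
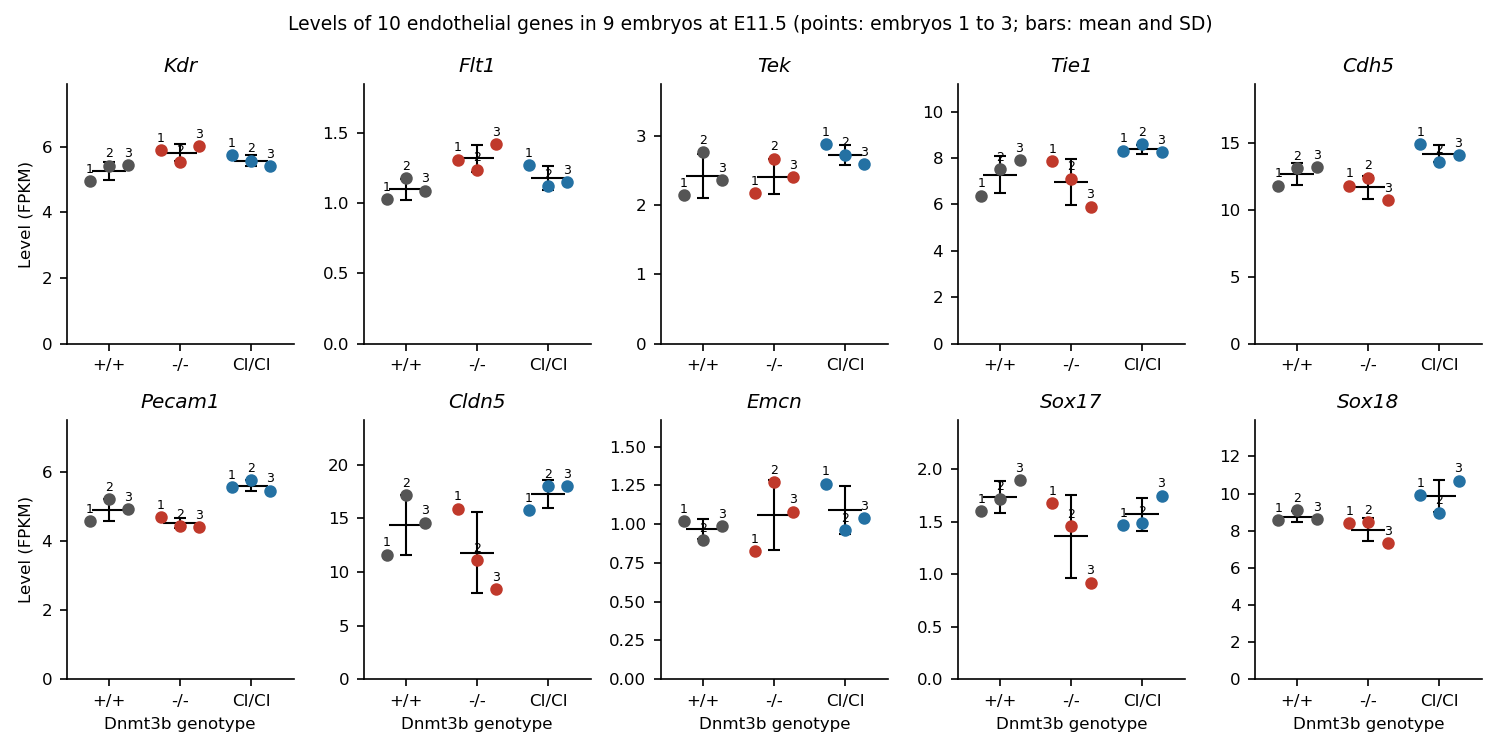
Level of each gene in FPKM on the vertical axis, from 0, in the 3 embryos of each genotype (numbered points) with mean and SD (bars). *Kdr* and *Flt1* have all 3 embryos labelled *Dnmt3b*-/- above all 3 *Dnmt3b*+/+ embryos, *Pecam1* has all 3 *Dnmt3b*CI/CI embryos above the other 6, and *Cldn5* has the largest SD in FPKM within the embryos labelled *Dnmt3b*-/-.

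Loss of Dnmt3b was addressed by comparing the embryos labelled *Dnmt3b*-/- with *Dnmt3b*+/+. None of the 10 endothelial genes rose or fell. Of all tested genes 25.8% were called, 9.41% higher and 16.4% lower, and 4.45% were called with a change of at least 2-fold. The largest difference of a member was 1.3-fold, in *Sox17*, and the 95% interval of every member stayed within 2-fold in both directions. At an unadjusted p under 0.05 there were 2 members, *Kdr* and *Flt1*, against 40% of all tested genes. The median log2 fold change was -0.09 over the members and -0.07 over all tested genes. By position of the embryos alone, 3 of the 10 members did not overlap between the groups, against 38.9% of all tested genes.

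The VEGF receptors were the members with the lowest p-values. *Kdr* encodes VEGF receptor 2, the main signalling receptor for VEGF-A on endothelium. It measured 4.95, 5.42 and 5.43 FPKM in *Dnmt3b*+/+, 5.90, 5.53 and 6.02 FPKM in those labelled *Dnmt3b*-/-, and 5.74, 5.58 and 5.40 FPKM in *Dnmt3b*CI/CI. The lowest embryo labelled *Dnmt3b*-/- was just above the highest *Dnmt3b*+/+ embryo. The log2 fold change was 0.14 (SE 0.06, unadjusted p = 0.0492, limma adjusted p = 0.124), a difference of 10.3%. *Flt1* encodes VEGF receptor 1, which binds VEGF-A tightly and, as a soluble form, withholds it from *Kdr*. Its values were 1.03, 1.18 and 1.09 FPKM in *Dnmt3b*+/+, 1.31, 1.24 and 1.42 FPKM in those labelled *Dnmt3b*-/-, and 1.27, 1.12 and 1.15 FPKM in *Dnmt3b*CI/CI. The groups again did not overlap between the embryos labelled *Dnmt3b*-/- and *Dnmt3b*+/+, and the log2 fold change was 0.25 (SE 0.10, unadjusted p = 0.0318, limma adjusted p = 0.0916). With quantile normalization *Flt1* was called (log2 fold change 0.45, limma adjusted p = 0.0209). Transcript forms of *Flt1* cannot be separated in a value per gene.

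The Tie receptors did not differ between these groups beyond their spread. *Tek* encodes Tie2, the receptor of the angiopoietins, and measured 2.14, 2.77 and 2.36 FPKM in *Dnmt3b*+/+, 2.17, 2.67 and 2.40 FPKM in those labelled *Dnmt3b*-/-, and 2.88, 2.73 and 2.59 FPKM in *Dnmt3b*CI/CI. The first 2 groups were almost superimposed, with a fold of 0.997 (95% interval 0.836 to 1.19). *Tie1*, a receptor that pairs with Tie2 and tunes its signal, measured 6.38, 7.52 and 7.91 FPKM in *Dnmt3b*+/+, 7.86, 7.11 and 5.90 FPKM in those labelled *Dnmt3b*-/-, and 8.31, 8.59 and 8.24 FPKM in *Dnmt3b*CI/CI. Its fold was 0.955 (95% interval 0.8 to 1.14), and the *Dnmt3b*CI/CI embryos lay above all others.

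None of the junction and surface genes passed the test between the embryos labelled *Dnmt3b*-/- and *Dnmt3b*+/+. *Cdh5* encodes VE-cadherin, the adhesion protein of endothelial adherens junctions, and measured 11.8, 13.1 and 13.2 FPKM in *Dnmt3b*+/+, 11.8, 12.4 and 10.7 FPKM in those labelled *Dnmt3b*-/-, and 14.9, 13.6 and 14.1 FPKM in *Dnmt3b*CI/CI. *Pecam1*, an adhesion receptor of endothelium that platelets and leukocytes also carry, measured 4.56, 5.20 and 4.91 FPKM in *Dnmt3b*+/+, 4.69, 4.43 and 4.40 FPKM in those labelled *Dnmt3b*-/-, and 5.55, 5.76 and 5.45 FPKM in *Dnmt3b*CI/CI. For both genes the first 2 groups overlapped, and the *Dnmt3b*CI/CI group stood apart on the upper side. Log2 fold changes between the embryos labelled *Dnmt3b*-/- and *Dnmt3b*+/+ were -0.12 for *Cdh5* (limma adjusted p = 0.247) and -0.11 for *Pecam1* (limma adjusted p = 0.221).

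*Cldn5* encodes claudin-5, the claudin of endothelial tight junctions and a mark of brain vessels. It measured 11.6, 17.2 and 14.6 FPKM in *Dnmt3b*+/+, 15.9, 11.1 and 8.37 FPKM in those labelled *Dnmt3b*-/-, and 15.8, 18.0 and 18.0 FPKM in *Dnmt3b*CI/CI. Its embryos varied more than those of any other member, and the groups overlapped widely. The log2 fold change was -0.32 (SE 0.22, limma adjusted p = 0.309). Without the embryo labelled *Dnmt3b*-/- 1 it was -0.56 (limma adjusted p = 0.0389), and without number 3 it was -0.10 (0.752). *Emcn* encodes endomucin, a mucin of capillary and venous surfaces, and had the lowest level of the 10. It measured 1.02, 0.895 and 0.985 FPKM in *Dnmt3b*+/+, 0.825, 1.27 and 1.08 FPKM in those labelled *Dnmt3b*-/-, and 1.26, 0.961 and 1.04 FPKM in *Dnmt3b*CI/CI. The embryos labelled *Dnmt3b*-/- held both the lowest and the highest of the 9 values, and the fold was 1.07 (95% interval 0.834 to 1.38).

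*Sox17* and *Sox18* encode SoxF transcription factors, *Sox17* prominent in arteries and also in endoderm, *Sox18* in early lymphatic and vascular endothelium. *Sox17* measured 1.60, 1.72 and 1.90 FPKM in *Dnmt3b*+/+, 1.68, 1.46 and 0.920 FPKM in those labelled *Dnmt3b*-/-, and 1.47, 1.49 and 1.75 FPKM in *Dnmt3b*CI/CI. Embryo 3 labelled *Dnmt3b*-/- was far below the rest. The log2 fold change was -0.38 (SE 0.19, limma adjusted p = 0.181) with it and -0.14 (0.482) without it. *Sox18* measured 8.56, 9.11 and 8.62 FPKM in *Dnmt3b*+/+, 8.39, 8.47 and 7.34 FPKM in those labelled *Dnmt3b*-/-, and 9.93, 8.97 and 10.7 FPKM in *Dnmt3b*CI/CI. The embryos labelled *Dnmt3b*-/- were below *Dnmt3b*+/+ without overlap, by a log2 fold change of -0.12 (SE 0.08, limma adjusted p = 0.3).

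Embryo 3 labelled *Dnmt3b*-/- had the lowest of the 9 values in 6 members, *Cdh5*, *Pecam1*, *Tie1*, *Sox17*, *Sox18* and *Cldn5*, and the highest in *Kdr* and *Flt1*. The median-of-ratios size factor of its library was also the lowest, 0.936 in a range up to 1.036. Without it, the median log2 fold change of the members was -0.03, *Kdr* was at 0.12 (limma adjusted p = 0.293) and *Flt1* at 0.20 (0.247).

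Loss of catalytic activity alone was addressed by comparing *Dnmt3b*CI/CI with *Dnmt3b*+/+. No member was called by limma, and 0.144% of all tested genes were. At an unadjusted p under 0.05 there was 1 member, against 5.25% of all tested genes: *Pecam1* (log2 fold change 0.19, SE 0.06, unadjusted p = 0.0169, limma adjusted p = 0.862). Positive differences were found for 9 members, with *Sox17* as the exception at -0.14, and the median was 0.17 against 0.02 over all tested genes. *Cdh5*, *Pecam1* and *Tie1* had all 3 *Dnmt3b*CI/CI embryos above all 3 *Dnmt3b*+/+ embryos, so 3 of 10 members did not overlap, against 13.2% of all tested genes. The largest difference was 1.21-fold, in *Cldn5*, and all 10 intervals stayed within 2-fold.

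The null and the catalytically inactive allele were compared directly. *Pecam1* fell (log2 fold change -0.30, SE 0.06, limma adjusted p = 0.0106), as did *Cdh5* (-0.29, SE 0.07, limma adjusted p = 0.0218) and *Sox18* (-0.29, SE 0.08, limma adjusted p = 0.0314) in the embryos labelled *Dnmt3b*-/- relative to *Dnmt3b*CI/CI. These are differences of 18.0% to 19.0%, smaller than 2-fold. The 3 calls among 10 members, all lower, stand beside 18.2% of all tested genes called lower, 9.7% called higher and 27.9% in either direction, with 5.42% called at 2-fold or more. The share of members called was thus near that of all genes. Unadjusted p under 0.05 was reached by 5 members, against 41.9% of all tested genes, with *Tie1* (log2 fold change -0.27, limma adjusted p = 0.0993) and *Cldn5* (-0.59, limma adjusted p = 0.0751) beside those 3. The groups did not overlap for 4 members, *Cdh5*, *Pecam1*, *Tie1* and *Sox18*, against 46.2% of all tested genes. The median of the members was -0.25 and that of all tested genes -0.08. The same embryos labelled *Dnmt3b*-/- enter this comparison and the one with *Dnmt3b*+/+, and the same *Dnmt3b*CI/CI embryos enter the comparison of the knock-in, so the 3 sets of values are not independent.

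Of these calls only that of *Pecam1* was kept under all 18 alternatives. The calls of *Cdh5* and *Sox18* were both lost with embryo number as a replicate block. *Cdh5* was also lost without *Dnmt3b*CI/CI embryo 1 (limma adjusted p = 0.0786) or 3 (0.0618) and without the embryo labelled *Dnmt3b*-/- 3 (0.0724). With median-of-ratios scaling *Cdh5* (0.0564) and *Sox18* (0.0723) were both lost, and *Sox18* also without a filter on low values (0.0548) and in a fit of the 2 genotypes alone (0.0556). *Sox18* was further lost without *Dnmt3b*CI/CI embryo 1 (0.0881) or 3 (0.106), without the embryo labelled *Dnmt3b*-/- 2 (0.0521) or 3 (0.101), and without *Dnmt3b*+/+ embryo 3 (0.0507). Leaving out the embryo labelled *Dnmt3b*-/- 1 added *Tie1* (0.0312) and *Cldn5* (0.00857), which made 5 members lower.

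**Figure D2:**
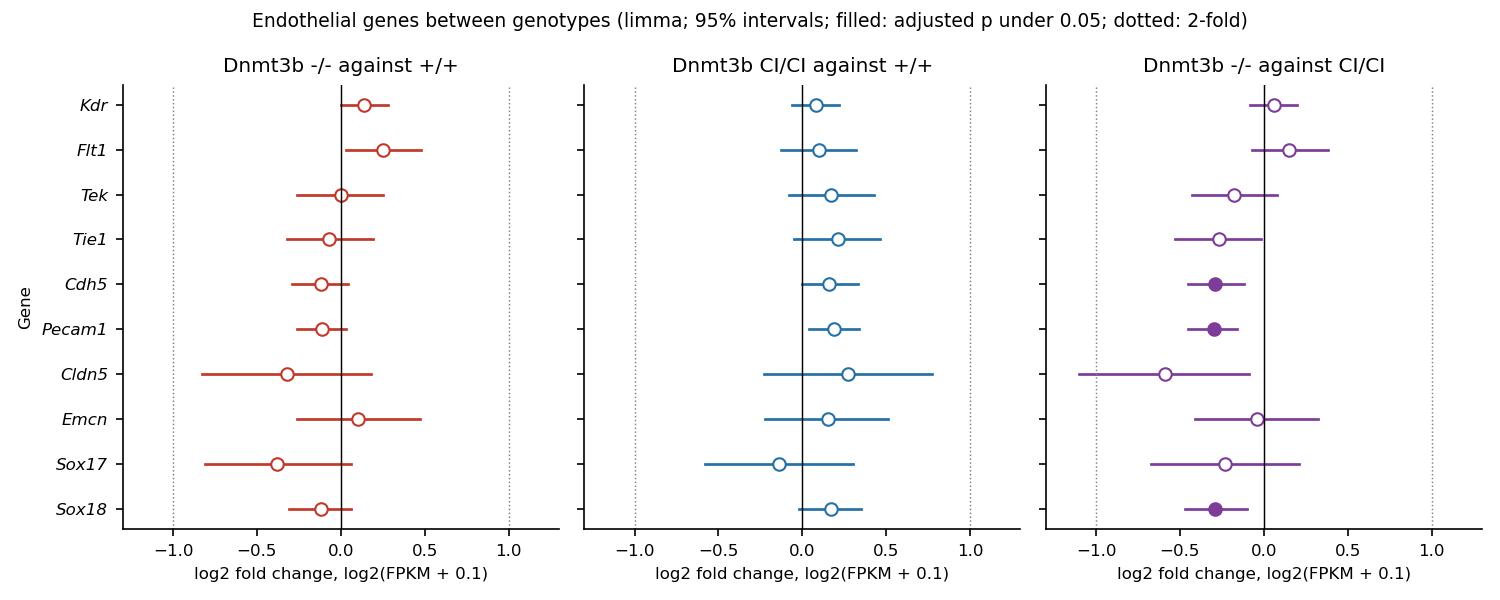
Log2 fold change of each gene on the log2(FPKM + 0.1) scale, with its 95% interval, in each of the 3 comparisons of genotypes. Filled points passed limma's adjusted p of 0.05 and dotted lines mark 2-fold: only *Cdh5*, *Pecam1* and *Sox18*, in the embryos labelled *Dnmt3b*-/- against *Dnmt3b*CI/CI, are filled, and only the interval of *Cldn5* there crosses a dotted line.

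*Pecam1* is shared with blood cells, whose markers were read in the same embryos and stand beside the 18.2% of all tested genes called lower. In the embryos labelled *Dnmt3b*-/- relative to *Dnmt3b*CI/CI, 8 of 12 tested leukocyte and macrophage markers fell and 0 rose, and their summed level was 25.3 to 33.5 FPKM against 37.2 to 42.8 FPKM. Of 9 megakaryocyte and platelet markers tested, 1 fell, with summed levels of 28.7 to 40.8 against 42.6 to 55.6 FPKM. On each of these lists 1 marker stayed under 0.1 FPKM in every embryo. Mesenchyme markers gave 6 of 9 lower and 1 higher, with sums of 232 to 253 against 345 to 411 FPKM. For *Dnmt3b*CI/CI against *Dnmt3b*+/+, no leukocyte, macrophage or platelet marker was called. There the leukocyte and macrophage sums were 37.2 to 42.8 against 32.1 to 36.7 FPKM, and the platelet sums 42.6 to 55.6 against 31.0 to 55.0 FPKM. The part of these cells in the endothelial values was not tested.

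To see how the members moved against one another, the level of each was taken relative to the mean log2 level of the other 9 and centred over the embryos. *Kdr* was then at -0.03, -0.09 and -0.05 in *Dnmt3b*+/+, at 0.12, 0.03 and 0.36 in those labelled *Dnmt3b*-/-, and at -0.10, -0.08 and -0.17 in *Dnmt3b*CI/CI. *Flt1* was at -0.08, -0.08 and -0.15, at 0.16, 0.09 and 0.49, and at -0.06, -0.18 and -0.19 in the same order. For both VEGF receptors each of the 3 embryos labelled *Dnmt3b*-/- lay above all 6 others, with its embryo 3 the farthest above. No other member separated from *Dnmt3b*+/+ in this way, which made 2 of 10, while 32.1% of all tested genes did when set against the mean of the members. Against *Dnmt3b*CI/CI *Cdh5* also separated, at -0.11, -0.01 and -0.05 against 0.09, 0.02 and 0.03, which made 3 of 10 beside 49.3% of all tested genes. Neither share is above its background.

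**Figure D3:**
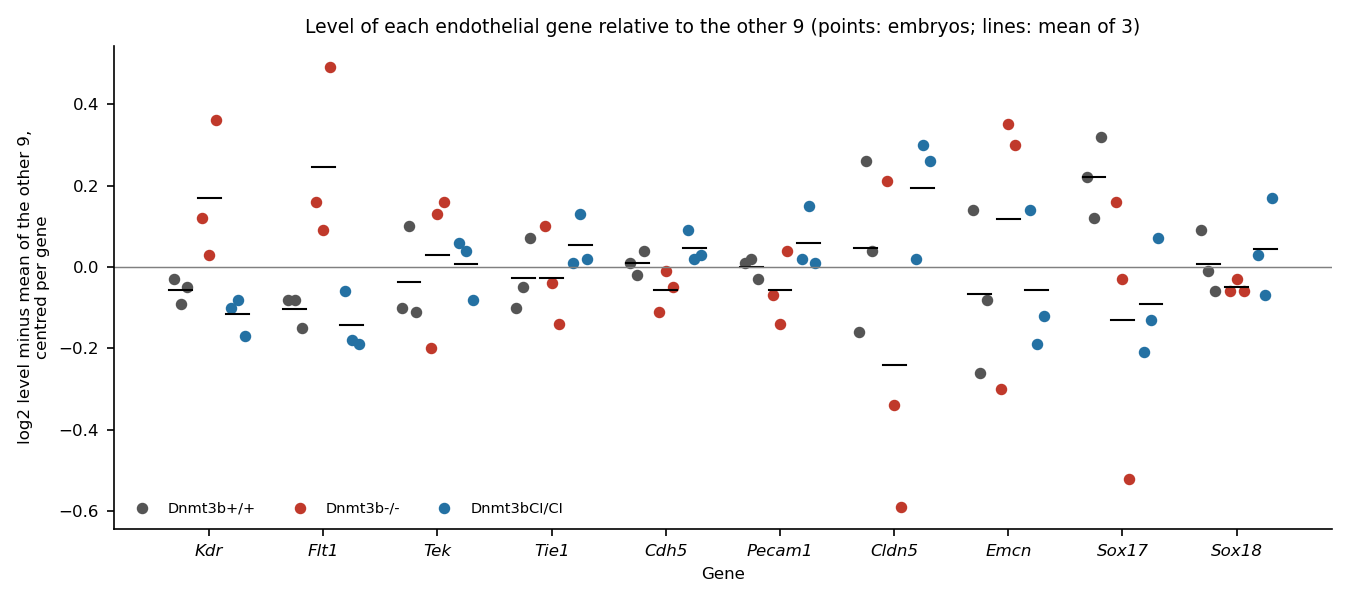
Log2(FPKM + 0.1) of each gene minus the mean of the other 9, centred per gene, for the 3 embryos of each genotype (points) with the mean (line). *Kdr* and *Flt1* are above the other embryos in the 3 embryos labelled *Dnmt3b*-/-, while *Sox17* (0.16 to -0.52) and *Cldn5* (0.21 to -0.59) are spread widely there.

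Over the 9 embryos the members varied to unequal degrees. The SD of log2 levels was 0.08 for *Kdr*, smaller than in all but 7.86% of tested genes, and between 0.14 and 0.19 for *Flt1*, *Pecam1*, *Cdh5*, *Tek*, *Sox18*, *Tie1* and *Emcn*. *Sox17* reached 0.28 and *Cldn5* 0.38, above the median of 0.21 over all tested genes. The profile of the members, the mean of their centred log2 levels, was -0.02 ± 0.10 in *Dnmt3b*+/+ and 0.11 ± 0.03 in *Dnmt3b*CI/CI, and -0.09 ± 0.11 where the label was *Dnmt3b*-/- (SD, n = 3). Among 12787 other genes with a mean of at least 1 FPKM, the closest to this profile over the 9 embryos were *Ckap4* (root mean square difference 0.0281 on the log2 scale), *Tmem59* (0.0303), *Saraf* (0.0417), *Vps52* (0.0423) and *Fnta* (0.0437). None of these 5 is on the endothelial lists used here. *Cdh5*, the member nearest to the mean profile, had 0.0473.

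Ligands and partners of the receptors were compared in the same fit, and the counts of every list below stand beside 9.41% of all tested genes called higher and 16.4% called lower. Of 8 VEGF ligands and co-receptors, 1 fell in the embryos labelled *Dnmt3b*-/- relative to *Dnmt3b*+/+ and 0 rose, with a median log2 fold change of -0.09. *Vegfa*, the ligand of *Kdr* and *Flt1*, measured 14.6, 15.8 and 13.3 FPKM against 16.5, 13.2 and 15.2 FPKM, a log2 fold change of 0.04 (SE 0.11, limma adjusted p = 0.825). The other ligands gave -0.06 for *Vegfb*, -0.06 for *Vegfc*, -0.27 for *Vegfd* and -0.22 for *Pgf*, with adjusted p from 0.339 to 0.785 by limma. *Flt4*, the VEGF-C receptor of lymphatic vessels, gave 0.21 (limma adjusted p = 0.142), and with quantile normalization it was called (0.0248). The co-receptor *Nrp2* gave -0.12 (limma adjusted p = 0.428), and it was called without the embryo labelled *Dnmt3b*-/- 1 (0.0296). *Nrp1*, the co-receptor of arterial endothelium that neurons also express, fell from 4.44, 4.38 and 4.36 FPKM to 3.77, 3.74 and 3.30 FPKM (log2 fold change -0.28, limma adjusted p = 0.0414), a call kept in 7 of 18 alternatives and in neither other scaling. It was lost without any 1 of the *Dnmt3b*+/+ embryos (0.0867, 0.0847 and 0.095), without the embryo labelled *Dnmt3b*-/- 2 (0.0789) or 3 (0.128), and without *Dnmt3b*CI/CI embryo 2 (0.0646).

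Among 5 angiopoietins and Tie partners, 2 fell and 0 rose, with a median of -0.16. *Angpt1*, the ligand that activates Tie2 and comes mainly from mural and heart cells, fell from 1.99, 1.77 and 1.98 FPKM to 1.51, 1.59 and 1.29 FPKM (log2 fold change -0.37, SE 0.10, limma adjusted p = 0.0246). *Svep1*, a matrix protein that binds Tie1, fell from 1.71, 1.40 and 1.87 FPKM to 1.24, 1.01 and 0.988 FPKM (-0.57, SE 0.14, limma adjusted p = 0.0195). Both sets of embryos were separate for both genes, while the receptors *Tek* and *Tie1* themselves overlapped. The *Angpt1* call was lost without *Dnmt3b*+/+ embryo 1 (0.0628) or 3 (0.0795) or the embryo labelled *Dnmt3b*-/- 3 (0.0716), with quantile normalization (0.138), with the replicate block and in the fit of 2 genotypes (0.0771). That of *Svep1* was lost without *Dnmt3b*+/+ embryo 3 (0.0688) or the embryo labelled *Dnmt3b*-/- 2 (0.0695) or 3 (0.0665) and with quantile normalization (0.0628). *Angpt2*, the endothelial antagonist of Tie2, *Angpt4* and the Tie2 phosphatase gene *Ptprb* gave -0.04, -0.09 and -0.16, with adjusted p from 0.373 to 0.853 by limma. With 0.01 FPKM added in place of 0.1, the difference of the low gene *Angpt4* was -0.16 (limma adjusted p = 0.638). *Sox7*, the remaining SoxF gene, measured 2.23, 2.88 and 2.91 FPKM against 2.57, 2.39 and 1.97 FPKM (-0.20, limma adjusted p = 0.278).

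Of 32 other tested genes expressed across endothelium, 4 fell and 1 rose, with a median of -0.13, beside 25.8% of all tested genes called in either direction. The gene that rose was *Plvap* (0.39, limma adjusted p = 0.00502), whose call was not followed under the alternatives. In the embryos labelled *Dnmt3b*-/- relative to *Dnmt3b*CI/CI, 10 of the 32 fell and 1 rose, with a median of -0.24, beside 27.9% of all tested genes called in either direction. *Shank3*, a scaffold protein also of synapses, was the one of the 4 genes lower than in *Dnmt3b*+/+ that passed under all alternatives (-0.67, SE 0.13, limma adjusted p = 0.00916). Among 18 endothelial transcription factor genes 4 fell and 0 rose. *Nfatc1*, required in endocardium for the heart valves, fell from 2.70, 3.03 and 3.07 FPKM to 0.995, 1.31 and 1.08 FPKM (-1.31, SE 0.11, limma adjusted p = 0.00035). *Mef2c*, a factor of muscle, neural crest and endothelium, fell by 1.10 on the log2 scale (limma adjusted p = 0.00229). *Erg*, an ETS factor of endothelium and of cartilage, fell from 4.36, 4.16 and 4.91 FPKM to 2.50, 2.23 and 2.08 FPKM (-0.95, SE 0.09, limma adjusted p = 0.000422). These 3 factors are not restricted to endothelium, and the cells in which their RNA fell were not tested. None of the 10 members was called in this comparison.

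Of 16 arterial and Notch genes *Hey2*, a Notch target of arteries and heart ventricle, fell (-0.68, SE 0.10, limma adjusted p = 0.00313), and *Unc5b*, a netrin receptor of arterial tips, rose (0.46, SE 0.08, limma adjusted p = 0.00736). Among 10 venous and lymphatic genes 2 fell and 1 rose, with *Lyve1*, a hyaluronan receptor of lymphatic endothelium and macrophages, at -0.78 (SE 0.17, limma adjusted p = 0.0122). Of 7 endocardial genes 2 fell, *Nfatc1* and *Adgrg6*, an adhesion receptor needed in heart and Schwann cells (-1.20, SE 0.22, limma adjusted p = 0.00761). Of 14 brain endothelial barrier genes 2 fell, among them *Reck*, the Wnt7 co-receptor component (-0.36, SE 0.08, limma adjusted p = 0.0134). Junction partners of VE-cadherin and claudin-5 gave 2 higher and 1 lower of 14. *Ctnna1*, the alpha-catenin that links cadherins to actin and that epithelia also express, rose from 33.6, 28.7 and 32.0 FPKM to 45.5, 51.4 and 51.9 FPKM (0.66, SE 0.08, limma adjusted p = 0.00156).

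Genes of the layers around the endothelium were read from 2 lists. Of 14 mural cell genes 7 fell and 1 rose in the embryos labelled *Dnmt3b*-/-, 4 with at least 2-fold, and the median was -0.40. *Cspg4*, the NG2 proteoglycan of pericytes, fell from 1.96, 2.28 and 2.51 FPKM to 0.965, 0.820 and 0.680 FPKM (-1.36, SE 0.13, limma adjusted p = 0.000511). *Kcnj8* and *Abcc9*, subunits of the pericyte potassium channel, fell by 1.32 and 1.23 on the log2 scale (limma adjusted p = 0.00289 and 0.00408). The gene of this list that rose was *Notch3* (0.38, limma adjusted p = 0.00173), and *Pdgfrb* was not called (-0.11, limma adjusted p = 0.405). Vascular basement membrane genes gave 5 lower and 0 higher of 10, with *Lama4*, the endothelial laminin chain, at -0.86 (SE 0.08, limma adjusted p = 0.000572). Mesenchyme markers gave 6 lower and 1 higher of 9, a median of -0.73, and *Dcn* at -1.86 (SE 0.12, limma adjusted p = 7.2e-05). Pericyte genes are partly shared with mesenchyme. For *Cspg4*, *Kcnj8* and *Abcc9* the 3 embryos labelled *Dnmt3b*-/- each lay below all *Dnmt3b*+/+ embryos, while the summed level of the whole list of 14, which also holds smooth muscle genes, was 84.8 to 97.1 FPKM against 94.5 to 121 FPKM and overlapped. Among all 228 tested genes of the 21 lists, members aside, 12 rose and 46 fell in this comparison, 58 in all, beside the 25.8% of all tested genes. In *Dnmt3b*CI/CI against *Dnmt3b*+/+ limma called 0 of the 228, with 15 at an unadjusted p under 0.05, beside 0.144% of all tested genes called and 5.25% at such a p.

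**Figure D4:**
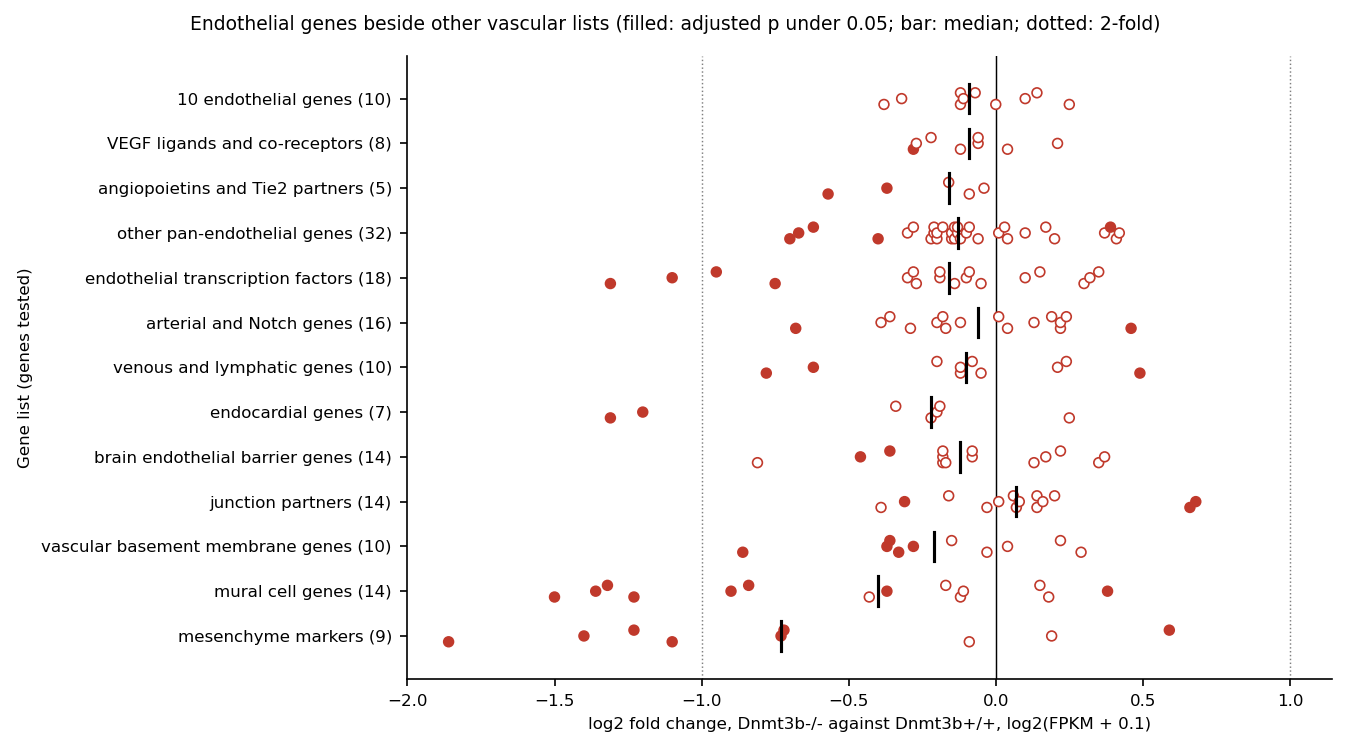
Log2 fold change of every tested gene of 13 lists in the embryos labelled *Dnmt3b*-/- against *Dnmt3b*+/+, on the log2(FPKM + 0.1) scale, with the list median as a bar. Filled points passed limma's adjusted p of 0.05: none of the 10 endothelial genes is filled and all lie between -0.38 and 0.25. Mesenchyme markers reach -1.86. Mural cell genes reach -1.50 in *Myh11*, whose groups overlapped and whose call was kept in 7 of 18 alternatives.

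Blood cells inside the vessels were read from their own markers. Of 13 erythroid markers 2 rose and 0 fell in the embryos labelled *Dnmt3b*-/- relative to *Dnmt3b*+/+, namely the embryonic globins *Hbb-bh1* and *Hba-x*, and the summed erythroid level was 2270 to 7040 FPKM against 2390 to 3070 FPKM. *Hbb-bh1* measured 26.9, 46.1 and 23.3 FPKM against 113, 501 and 265 FPKM (3.01, SE 0.48, limma adjusted p = 0.00418). The *Hba-x* call (1.79, limma adjusted p = 0.018) was lost without *Dnmt3b*+/+ embryo 3 (0.0599), without the embryo labelled *Dnmt3b*-/- 3 (0.0535) and in the fit of 2 genotypes (0.0559). Leukocyte and macrophage markers gave 4 lower and 1 higher of 12, with summed levels of 25.3 to 33.5 FPKM against 32.1 to 36.7 FPKM and *Mrc1* of tissue macrophages at -0.69 (SE 0.14, limma adjusted p = 0.009). Hematopoietic stem and progenitor markers gave 3 lower and 0 higher of 9, but their median was 0.20. Their summed levels overlapped, 12.0 to 16.5 FPKM against 9.6 to 17.1 FPKM. Among those that fell was *Runx1*, the factor by which blood cells arise from endothelium, at -0.77 (SE 0.15, limma adjusted p = 0.0089). Megakaryocyte and platelet markers gave 1 lower of 9, with a median of 0.04. *Sox17* is also a marker of endoderm. Of 8 endoderm markers 1 rose, *Shh* (1.18, SE 0.17, limma adjusted p = 0.0029), and 0 fell, with a median of 0.24. Their summed levels were 55.8 to 60.5 FPKM against 43.6 to 47.6 FPKM. *Shh* also patterns the neural tube, and the tissues behind this call and this sum were not tested. Of 9 hepatocyte markers 1 fell, with a list median of 0.31. Among 8 neural markers 1 rose, with a median of -0.39, and of 8 cardiac muscle markers 1 fell, with a median of 0.53. Each of these single calls went against the median of its list. The part of these cells in the values of the 10 endothelial genes was not tested.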

How the data were processed

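Total RNA of 9 whole E11.5 embryos was isolated and sequenced by the authors as paired-end reads on a NovaSeq instrument, aligned with STAR to mm10, filtered at a mapping quality of 50 and quantified with SeqMonk's RNA-seq pipeline. The authors deposited 1 table of FPKM values on the linear scale, without zeros: a gene without reads holds a value worth 0.9 reads. Of its 34245 rows, 1 without a gene name was left out and 46 repeat an identifier. Library totals came from that floor, and reads per member from GENCODE M21 exon lengths, whole within 0.01 read for all members except *Cldn5* (approximate). Annotation release and strandedness are not given in the sources used here. Bisulfite sequencing was not analysed here.

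limma 3.58.1 (R 4.3.3) was fitted with a variance trend to log2(FPKM + 0.1) of 19397 genes with 0.1 FPKM or more in 3 of 9 embryos, 3 genotypes in 1 model, with Benjamini-Hochberg adjustment over all of them, after the script was tested on simulated data. Intervals are 95%. An exact permutation of 3 against 3 cannot give less than 0.1. The authors named DESeq2, a count model on reads, for their own comparisons. No count model was fitted here, neither to the FPKM values nor to reads recovered from them. Alternatives were pseudocounts of 0.01 and 1 FPKM, no filter or 1 FPKM, median-of-ratios and quantile scaling, no variance trend, fits of 2 genotypes, a replicate block and each embryo left out.

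The members and the 21 lists were chosen with earlier results of these data known, so no list count is independent evidence. Genes named are the members, *Dnmt3b*, all VEGF, angiopoietin and SoxF list genes, the 5 genes nearest in profile, and genes out of the at most 4 called ones with the largest change in each other list. *Notch3*, *Pdgfrb* and *Plvap* are named outside this rule, as genes of their lists that did not fall. Of the listed genes, 1 is not reported here. Tables used python 3.11.15, numpy 2.4.6, pandas 2.3.3 and matplotlib 3.10.9.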

Additional observations from a re-analysis of the deposited data

How the results depend on the processing

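In all 18 alternatives no member was called in *Dnmt3b*CI/CI against *Dnmt3b*+/+, and the median of the members kept its sign in each of the 3 comparisons. In the embryos labelled *Dnmt3b*-/- against *Dnmt3b*+/+, quantile normalization called 1 member higher (*Flt1*), and leaving out single embryos gave 0 to 1 members lower, 0 higher and medians from -0.15 to -0.03. Against *Dnmt3b*CI/CI, the 3 members lower became 1 with median-of-ratios scaling and 1 with the replicate block, and 1 to 5 without single embryos. Quantile normalization there gave 1 member higher and moved the median from -0.25 to -0.12. Quantile normalization moved the median of all tested genes in that comparison from -0.08 to 0.03. The share of calls that were higher went from 34.8% to 52.2% with median-of-ratios and 55.5% with quantile scaling, and in the embryos labelled *Dnmt3b*-/- against *Dnmt3b*+/+ from 36.5% to 50.2% and 52.2%. The cause was not tested.

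Differences near 0 changed sign. Against *Dnmt3b*+/+, with median-of-ratios and quantile scaling *Tek* was 0.06 and 0.13, *Vegfc* 0.007 and 0.098 and *Angpt2* 0.014 and 0.17, *Vegfb* was 0.005 with the first, and *Angpt4* 0.082 and *Ptprb* 0.048 with the second. Leaving out single embryos gave *Tek* -0.086 to 0.093, *Emcn* -0.029 to 0.26, *Tie1* -0.16 to 0.046, *Vegfc* -0.18 to 0.049, *Vegfa* -0.036 to 0.12 and *Angpt2* -0.13 to 0.11. Against *Dnmt3b*CI/CI, *Emcn* was 0.036 with median-of-ratios and 0.18 with quantile scaling and -0.18 to 0.11 without single embryos, and *Sox17* was -0.40 to 0.005 without single embryos.

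Embryos with the same number did not deviate together (mean correlation -0.0866, against 0.0478 for other pairs), so they share only a number. With the replicate block 1 member, *Pecam1*, was lower against *Dnmt3b*CI/CI, where *Cdh5* (adjusted p = 0.0602 by limma) and *Sox18* (0.0809) were lost, and 0 were called in the other comparisons. The block lowered the calls among all genes from 5001 to 3029 in the embryos labelled *Dnmt3b*-/- against *Dnmt3b*+/+ and from 5407 to 3595 against *Dnmt3b*CI/CI, and in the first it lost *Angpt1* (adjusted p = 0.0622 by limma). *Emcn* and *Sox17* had the fewest reads of the members, as few as 178 in an embryo, and an effect of depth was not tested.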
